A study of Mus musculus with 12 samples.

Results

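Ehf, Elf3, Elf5 and Spdef are the ETS transcription factors whose expression is largely restricted to epithelial cells. They were followed in mouse embryonic salivary glands with reduced fibroblast growth factor (FGF) receptor activity. The members were taken by gene identifier: ENSMUSG00000012350 (Ehf), ENSMUSG00000003051 (Elf3), ENSMUSG00000027186 (Elf5) and ENSMUSG00000024215 (Spdef), 4 of the 52636 genes in the deposited counts. All 4 passed the filter on low counts. The study isolated salivary glands at E13.5, cultured them for 2 days on a membrane at the surface of the medium, and sequenced RNA depleted of ribosomal RNA from 12 libraries. Wild-type glands received the solvent DMSO (n = 3) or 2.5 µM SU5402, a small-molecule inhibitor of FGF receptors (n = 3, written FGFRi in the plots). Untreated glands came from a K14Cre-Fgfr2b cross and were wild-type (WT, n = 2), heterozygous (HET, n = 2) or homozygous, -/- (HOM, n = 2). K14Cre expresses the recombinase from the keratin 14 promoter, so deletion is limited to cells in which that promoter has been active, while SU5402 is added to the medium of the whole explant. The labels did not say how many glands or embryos were pooled in a library or whether replicates came from separate embryos. The p-values therefore measure the spread between these libraries, which may be technical. By the sex given below, DMSO 2 came from other embryos than DMSO 1 and DMSO 3, and nothing similar is known within the other groups.

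ETS proteins share a winged-helix DNA-binding domain that recognises a GGAA core. Ehf, Elf3 and Elf5 form the ESE subfamily, named for expression in epithelia, and Spdef is the epithelial factor with a preference for GGAT. Ehf is known for keeping the epithelial state and restraining Zeb1, and Elf3 for terminal differentiation of gut and other epithelia and for induction by inflammatory signals. Elf5 is required for secretory alveoli of the mammary gland, and Spdef for goblet and other mucous secretory cells. In the salivary gland, FGF10 from the mesenchyme acts on Fgfr2b in the epithelium to drive bud growth and branching.

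The promoters of the factors are shown because all 4 genes were lower in both HOM libraries than in all 4 WT and HET libraries, as were 12.2% of all genes tested, and because ETS factors are known to act on ETS genes. Windows for 3 of the 4 members were found in the RefSeq table (GRCm38.p6), and only the part before the start that carried no annotated exon is printed, 5′ to 3′ on the gene's strand. Capitals mark GGAA and its reverse complement TTCC. The Elf3 window lies at chr1:135258569-135258722 (minus strand), that of Elf5 at chr2:103423818-103424061 (plus strand) and that of Spdef at chr17:27728956-27729201 (minus strand).
Elf3: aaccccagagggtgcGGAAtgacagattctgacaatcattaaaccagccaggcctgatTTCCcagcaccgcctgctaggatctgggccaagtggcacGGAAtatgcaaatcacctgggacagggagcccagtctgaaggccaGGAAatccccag
Elf5: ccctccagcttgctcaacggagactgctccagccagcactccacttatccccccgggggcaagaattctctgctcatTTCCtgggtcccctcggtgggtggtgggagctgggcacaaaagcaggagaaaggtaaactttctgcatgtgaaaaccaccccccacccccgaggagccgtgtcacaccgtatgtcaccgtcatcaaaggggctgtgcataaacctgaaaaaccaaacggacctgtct
Spdef: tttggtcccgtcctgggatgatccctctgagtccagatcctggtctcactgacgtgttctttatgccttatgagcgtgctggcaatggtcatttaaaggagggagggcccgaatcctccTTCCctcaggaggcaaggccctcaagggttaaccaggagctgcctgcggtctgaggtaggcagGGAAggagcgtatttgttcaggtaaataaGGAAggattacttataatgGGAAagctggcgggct
The 154 bases of Elf3 held 4 GGAA cores counted over both strands, and 10.7% of all 32841 promoter windows cut to that length held as many (median 2). The 246 bases of Spdef also held 4, a number reached by 32.2% of windows of that length (median 3). The 244 bases of Elf5 held 1, and 93.0% of windows held at least that. A second annotated start of Elf5 had 0 exon-free bases before it and is not printed. The windows compared were only cut to length, with any exons left in, so these shares set unlike windows side by side. The longer motif AGGAAG, which contains GGAA, occurred once in Spdef, against 29.1% of windows, and in neither of the others. These matches describe letters in a window and say nothing of binding.

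Library totals ran from 6043701 to 22322182 counts. Counts per library were 2235 to 9785 for Ehf, 197 to 706 for Elf3, 413 to 2384 for Elf5 and 155 to 1089 for Spdef. Fgfr2, the targeted gene, was at 99.2 to 101 CPM (normalised counts scaled to library size) in WT, 86.2 to 99.9 in HET and 89.2 to 94.4 in HOM. Whole-gene counts cannot isolate the deleted isoform, so this checks nothing. By Xist and the Y-linked genes both HOM libraries came from female tissue and all 4 WT and HET libraries from male tissue. HOM genotype and sex therefore cannot be told apart. In the inhibitor arm DMSO 2 was male and the other 5 libraries female. DMSO was thus the only group with both sexes, so a term for sex rests on DMSO 2 against DMSO 1 and 3. Such a term cannot separate sex from genotype in HOM. The summed level of 16 pan-epithelial genes (Epcam, Cdh1, Esrp1 and others, none at 0) was 2091 to 2355 CPM in DMSO and 1559 to 1744 with SU5402. It was 2177 to 2276 in WT, 1914 to 2016 in HET and 1579 to 1672 in HOM. The glands are mixed tissue, and fewer epithelial cells cannot be told apart from less RNA per epithelial cell.

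Per length, Ehf was the most abundant of the factors in every group. Levels here are normalised CPM divided by exon length in kb, and lengths come from a GRCm38 annotation. In DMSO glands Ehf stood at 88.0 ± 2.87 CPM per kb (SD, n = 3), Spdef at 22.9 ± 3.65, Elf5 at 21.02 ± 1.40 and Elf3 at 15.3 ± 1.13. Ehf made up 59.8% ± 1.16 (SD, n = 3) of the summed per-length level of the 4 genes there. Spdef and Elf5 did not differ beyond their spread in DMSO, and Elf3 lay below both. The order in WT was the same, with 91.8 ± 2.04 for Ehf, 24.7 ± 2.03 for Spdef, 21.8 ± 1.15 for Elf5 and 18.0 ± 1.69 for Elf3 (n = 2 each). In SU5402 glands the lower 3 factors lay close together, at 19.0 ± 3.17 for Elf3, 17.5 ± 4.64 for Spdef and 15.4 ± 2.37 for Elf5 (n = 3), and their spreads overlapped. Elf3 had the highest of these 3 levels in FGFRi 1 (22.6 CPM per kb, with Elf5 at 12.9 and Spdef at 12.3), lay between Spdef (18.8) and Elf5 in FGFRi 2 (17.5), and was the lowest in FGFRi 3 (16.8). In HOM the order was Ehf (55.7 ± 4.29), Spdef (18.3 ± 1.75), Elf5 (15.0 ± 0.701) and Elf3 (12.7 ± 0.176).

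Ehf, which supports epithelial identity, was lower in the homozygous glands. The WT libraries had 504 and 520 CPM, the HET libraries 439 and 437, and the HOM libraries 327 and 293. The 3 genotypes did not overlap, and HET lay between WT and HOM, an order without overlap that 3.77% of all genes tested showed. HOM against the mean of WT and HET gave a log2 change of -0.61 ± 0.08 (SE), a ratio of 0.655, with an adjusted p of 0.000646 by edgeR's quasi-likelihood test with Benjamini-Hochberg adjustment, the test used for every adjusted p here. Of all 15859 genes tested, 5.88% passed an adjusted p of 0.05 in that comparison, 3.44% being higher and 2.44% lower. Against WT alone the log2 change was -0.72 (adjusted p = 0.000359) and against HET alone -0.50 (adjusted p = 0.0129), where 3.06% and 0.876% of all genes were called lower (1.49% in either direction against HET). HET against WT gave -0.22 (adjusted p = 0.299), so the intermediate level of HET did not pass. The call for HOM against WT and HET held in each of the 6 fits that left out 1 of those libraries (-0.69 to -0.53). It did not hold with a term for sex (-0.53, adjusted p = 0.189) or with scaling by library totals (-0.46, adjusted p = 0.388). That sex term rests on the DMSO libraries alone. The HOM against HET call was lost without HET 1, HET 2 or HOM 2 (adjusted p up to 0.201). Scaled to the pan-epithelial genes, the call for HOM against WT and HET narrowly held (-0.24, adjusted p = 0.0461). The median over all genes on that scale was 0.36. The calls there against WT alone (-0.27, adjusted p = 0.0518) and HET alone (-0.22, adjusted p = 0.161) were both lost.

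With SU5402, Ehf was at 410, 425 and 453 CPM, below the DMSO libraries at 482, 509 and 481 without overlap. The change was -0.19 ± 0.08 on the log2 scale and did not pass (adjusted p = 0.0897, 95% interval -0.35 to -0.03). In that comparison 20.5% of all genes passed, 9.73% being higher and 10.7% lower, and 20.5% were lower in every treated library than in every control. Scaled to the pan-epithelial genes, Ehf was at 0.24 with SU5402 (adjusted p = 0.0337), below the median of 0.41 over all genes on that scale, where 8004 genes were called higher. The inhibitor effect minus the HOM effect was 0.42 ± 0.11 for Ehf and did not pass (adjusted p = 0.0593). In the main fit Ehf therefore has a called change in HOM and none with SU5402, but the difference between these effects is not established. The SU5402 change did pass in DESeq2 (-0.174, adjusted p = 0.046) and in limma-voom (-0.192, adjusted p = 0.041), so its call depends on the method.

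Elf5, the factor of secretory alveolar differentiation, was the member called in both settings, with near-equal size. It was at 115, 124 and 132 CPM in DMSO and at 75.8, 91.7 and 104 with SU5402. No treated library reached the lowest control. The log2 change was -0.44 ± 0.10, a ratio of 0.738 (adjusted p = 0.00471), and the call held without any 1 of the 6 libraries (-0.55 to -0.31). In the genotype series the WT libraries had 123 and 133 CPM of Elf5, HET 112 and 107, and HOM 91.2 and 85.4, in the same order without overlap (3.77% of all genes). HOM against WT and HET gave -0.42 ± 0.10 (adjusted p = 0.0206), and HOM against WT -0.54 (adjusted p = 0.00998), a call lost without WT 1, WT 2 or HOM 2 (adjusted p up to 0.122). HOM against HET gave -0.31 (adjusted p = 0.236), and HET against WT -0.22 (adjusted p = 0.412).

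The difference between the inhibitor and HOM effects on Elf5 was -0.01 ± 0.14 (adjusted p = 0.98, 95% interval -0.31 to 0.28). Among all genes 1.14% were lower in both comparisons, which share no library. The HOM call on Elf5 was lost without WT 2, HET 1, HOM 1 or HOM 2 (adjusted p up to 0.269), without DMSO 3 and WT 1 together (0.0517), and with a term for sex (0.51). The inhibitor call was lost with library totals (-0.41, adjusted p = 0.272), and scaled to the pan-epithelial genes neither change remained (-0.02 with SU5402 and -0.06 in HOM).

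Elf3, the differentiation factor that inflammatory signals induce, had opposite signs in the 2 settings. It was at 32.5, 36.7 and 32.3 CPM in DMSO and at 50.1, 38.9 and 37.2 with SU5402, so every treated library was above every control. FGFRi 1 was the highest, and the other treated libraries lay just above DMSO 2. FGFRi 1 also had the highest mitochondrial share of counts (14.2%, against 3.93% to 13.6% in the other 11 libraries) and the lowest TMM factor (0.767). The log2 change was 0.28 ± 0.11 and did not pass (adjusted p = 0.0856); 17.2% of all genes were higher in every treated library. It was 0.18 without FGFRi 1 and 0.37 without FGFRi 3, where it passed (adjusted p = 0.0407). Of 18 duct genes, 7 rose with SU5402, 4 fell and 7 did not pass. The duct keratins went both ways. Krt7 and Krt19 rose by 0.74 (adjusted p = 0.0197) and 0.65 (0.0252), while Krt8 and Krt18 fell by 0.64 (0.000382) and 0.51 (0.00125). The duct sum was 2178 to 2895 CPM in DMSO and 3288, 2743 and 2411 in FGFRi 1, 2 and 3, so the groups overlapped and FGFRi 1 was again the highest, with no gene at 0. Of 17 genes of end buds and acini, 15 were tested and 13 fell, with a sum of 1322 to 2366 CPM in DMSO and 724 to 1068 with SU5402. The part of these cell types, and of what set FGFRi 1 apart, in the level of Elf3 was not tested. In the genotype series Elf3 levels were 42.5 and 37.2 CPM (WT), 33.7 and 34.1 (HET), and 27.9 and 28.5 (HOM), also in that order without overlap. The duct sum was 1934 to 2193 CPM in WT and HET and 1351 and 1409 in HOM. HOM against WT and HET gave -0.38 ± 0.11 (adjusted p = 0.0596). HOM against WT passed at -0.50 (adjusted p = 0.028), as did 7.56% of all genes, but not without any 1 of the 4 libraries concerned (adjusted p up to 0.248).

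The inhibitor effect minus the HOM effect on Elf3 was 0.66 ± 0.16 (95% interval 0.33 to 1.00) and passed (adjusted p = 0.0378), as did 2.77% of all genes (1.36% with a higher value). Elf3 was the member for which the difference passed. The call was lost without DMSO 1, DMSO 3, FGFRi 1, WT 1, HET 1, HET 2, HOM 1 or HOM 2 (0.55 to 0.68, adjusted p up to 0.181) and held in the other 4 of 12 such fits. Without DMSO 3 and WT 1 together it was 0.59 (adjusted p = 0.137). An antisense gene, Gm26642, overlaps Elf3, and strand use in the counting is not given in the sources used here. It had 1 to 26 counts, against 197 to 706 for Elf3.

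Spdef, the mucous secretory factor, was lower on average in both settings but passed in neither. It was at 62.4, 49.1 and 46.8 CPM in DMSO and at 28.4, 43.4 and 49.1 with SU5402. FGFRi 3 lay inside the DMSO range, so the groups overlapped. The log2 change was -0.35 ± 0.15 (adjusted p = 0.127), -0.15 without FGFRi 1 and -0.52 without FGFRi 3, where it passed (adjusted p = 0.0328). In the genotype series WT had 60.1 and 53.5 CPM, HET 55.9 and 54.8, and HOM 39.4 and 45.1, with HOM below all controls. HOM against WT and HET gave -0.41 ± 0.16 (adjusted p = 0.15). HET and WT had nearly the same mean of Spdef (-0.04, adjusted p = 0.955, 95% interval -0.42 to 0.34). All 4 factors were lower in both HOM libraries than in all 4 controls, a pattern seen in 12.2% of all genes.

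**Figure D1:**
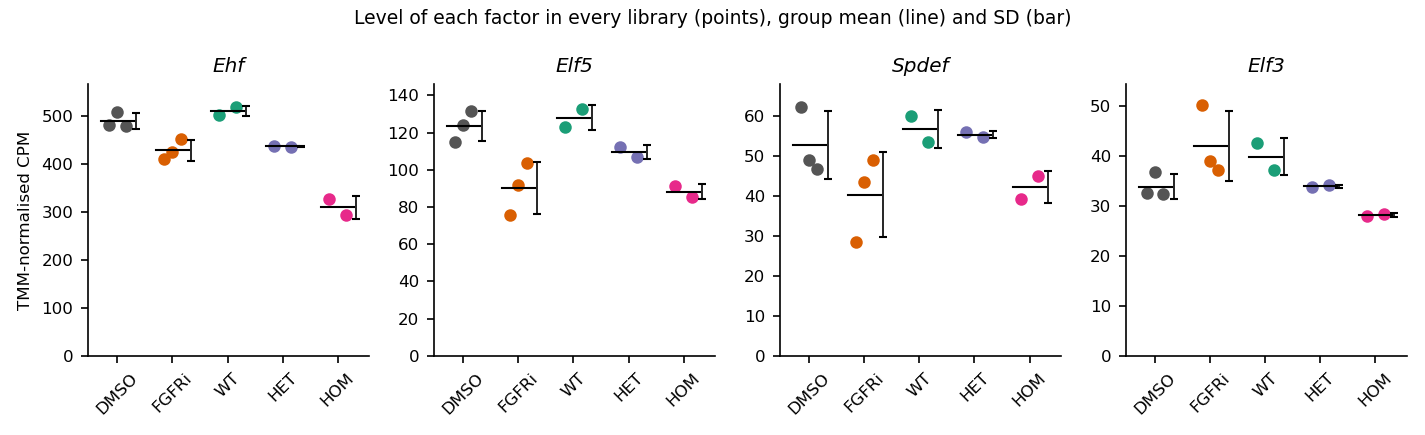
Level of Ehf, Elf5, Spdef and Elf3 in every library, in TMM-normalised CPM (linear axis from 0), with 1 point per library, the group mean as a line and the SD as a bar (n = 3 for DMSO and FGFRi, n = 2 for WT, HET and HOM). HOM libraries are the lowest of the genotype series for each gene, and Elf3 is the gene whose treated libraries (37.2 to 50.1 CPM) lie above DMSO.

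No factor passed the test between wild-type glands in DMSO and untreated WT glands. The WT libraries were male and came from the cross, while DMSO 1 and 3 were female. Solvent, sex and source of the glands therefore cannot be told apart here. The log2 differences, DMSO minus WT, were -0.06 for Ehf, -0.23 for Elf3, -0.05 for Elf5 and -0.12 for Spdef, with adjusted p-values from 0.436 to 0.893. The widest 95% interval was that of Spdef, -0.47 to 0.24, and 2.26% of all genes passed. The other ETS gene that differed was Etv4, higher in DMSO by 0.54 (adjusted p = 0.0199).

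**Figure D2:**
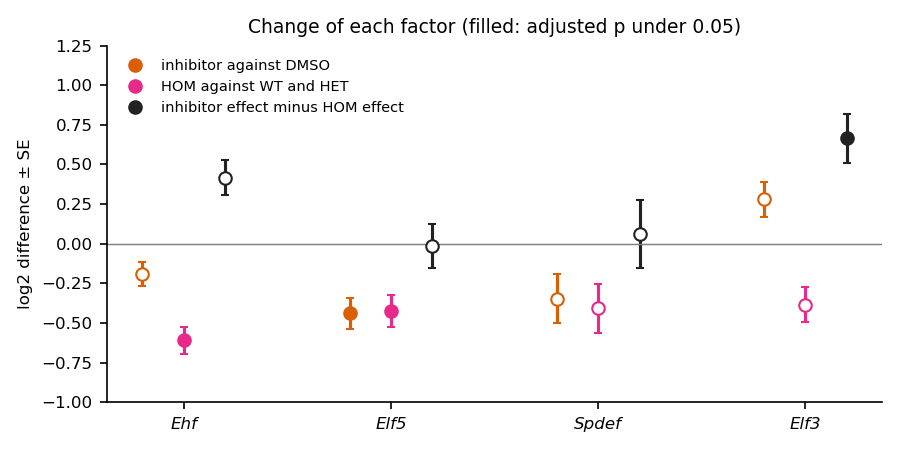
Log2 difference ± SE of each factor with the inhibitor against DMSO, in HOM against WT and HET, and for the inhibitor effect minus the HOM effect. Filled points have an adjusted p under 0.05: Elf5 in both comparisons, Ehf in HOM, and the difference for Elf3 (0.66).

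Since the summed level of the 16 pan-epithelial genes was lower in SU5402 and HOM glands, each factor was also read against that sum in the same library. Of the 16 genes, 14 fell and 2 did not pass with SU5402, and 7 fell and 9 did not pass in HOM. On this ratio Ehf and Elf3 were higher in every SU5402 library than in every DMSO library, as were 57.9% of all genes tested (1.69% were lower in every one), and Elf5 and Spdef overlapped the controls. A higher ratio to these genes was thus common. Ehf had 20.7, 21.6 and 23.0 counts per 100 pan-epithelial counts in DMSO and 26.3, 24.4 and 26.3 with SU5402. The log2 difference was 0.24. Elf3 had 1.39, 1.56 and 1.55 in DMSO and 3.21, 2.23 and 2.16 with SU5402, a difference of 0.73 or 1.66 times. Both had an exact permutation p of 0.1, two-sided, the smallest that 3 against 3 libraries allow (0.2 after adjustment over the 4 factors). Elf5 had 4.94, 5.27 and 6.29 in DMSO and 4.86, 5.26 and 6.004 with SU5402 (difference -0.03, exact p = 0.7). Spdef had 2.68, 2.09 and 2.24 in DMSO and 1.82, 2.49 and 2.85 with SU5402 (difference 0.02, exact p = 1).

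In the genotype series Ehf was lower in both HOM libraries than in all 4 controls on this ratio, as were 1.39% of all genes (55.1% were higher). Its counts per 100 pan-epithelial counts were 23.1 and 22.8 for WT, 21.8 and 22.8 for HET, and 20.7 and 17.6 for HOM. The log2 difference was -0.25 with an exact permutation p of 0.133, the smallest that 2 against 4 allow (0.533 adjusted). It was -0.13 without HOM 2 and -0.37 without HOM 1. Elf3 (-0.02), Elf5 (-0.06) and Spdef (-0.05) overlapped the controls. The lower CPM of Elf3, Elf5 and Spdef in HOM was therefore of about the same size as that of the pan-epithelial sum.

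**Figure D3:**
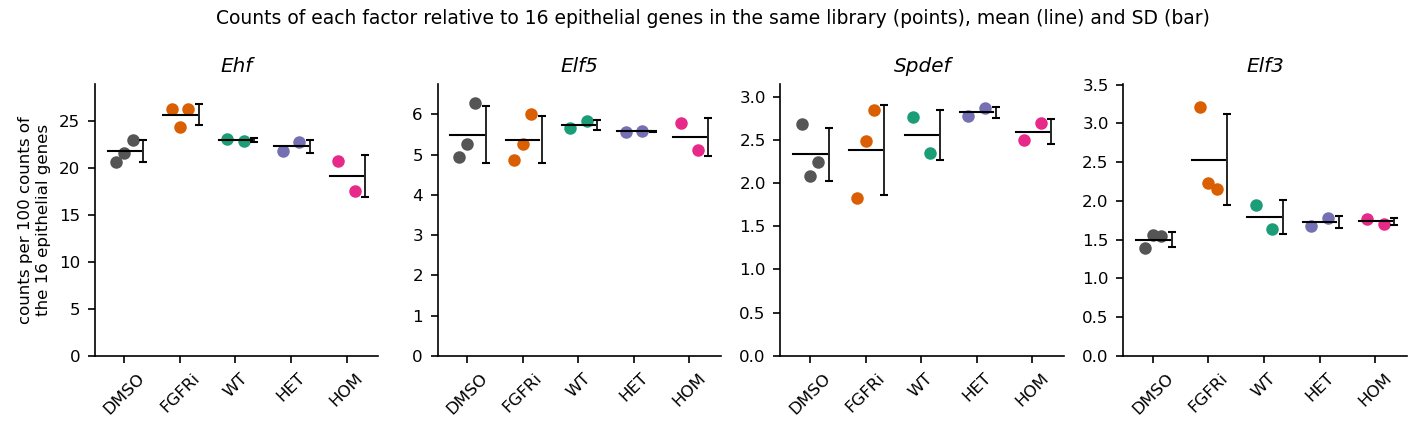
Counts of each factor per 100 counts of 16 pan-epithelial genes in the same library, with 1 point per library, the group mean as a line and the SD as a bar. Elf3 in the SU5402 libraries (2.16 to 3.21) lies above DMSO (1.39 to 1.56), Ehf in HOM (17.6 and 20.7) lies below WT and HET, and Elf5 overlaps between the groups compared.

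Ratios between members within a library do not depend on any scaling of libraries. With SU5402, the log2 ratio of Elf3 to Elf5 differed from DMSO by 0.76 and that of Elf3 to Spdef by 0.72, and those of Ehf to Elf3 and to Elf5 by -0.50 and 0.27. These 4 of 6 pairs did not overlap between SU5402 and DMSO (exact permutation p = 0.1 each, the smallest possible, 0.15 adjusted over the 6 pairs). Over all pairs of tested genes 34.4% did not overlap in either direction. Without FGFRi 1 the Elf3 to Spdef value was 0.35, that of Elf3 to Elf5 0.51, and that of Ehf to Elf3 was -0.33. Counts of Elf3 per count of Elf5 were 0.282, 0.296 and 0.246 in DMSO and 0.661, 0.424 and 0.359 with SU5402. In HOM, Ehf was lower against Elf3 (-0.23) and against Elf5 (-0.19) without overlap (exact p = 0.133 each, 0.4 adjusted), and the other 4 pairs overlapped. Over all gene pairs 25.4% did not overlap. The Ehf to Elf3 value was -0.14 without HOM 2. Ehf per count of Elf5 was 3.59 and 3.44 in HOM and 3.91 to 4.09 in WT and HET.

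Across the 12 libraries, log2 levels of Ehf and Elf5 had a Pearson r of 0.77, and those of Elf5 and Spdef 0.76. Elf3 had r = 0.49 with Ehf, -0.10 with Elf5 and -0.30 with Spdef. These values describe 12 libraries that share groups and epithelial content. Among 10318 protein-coding genes, the pattern most like that of Ehf was that of Clcn3 (r = 0.96), followed by Pdlim5, Akap17b, Bace2 and Prkci. For Elf5 it was Marveld3 (0.96), a tight-junction gene that is one of the 16 pan-epithelial genes, followed by Impa1, Cldn1 (0.95), Tcim and Znrf2. For Spdef it was Mrps23 (0.96), followed by Creb3l4 (0.95), Eif4ebp2, Slc37a3 and Mfsd6. For Elf3 it was Lamb3 (0.91), a laminin chain of the epithelial basement membrane, followed by Pam, Nedd9, Pdgfa and Xpc.

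Ehf and Elf5 are adjacent protein-coding genes on chromosome 2, on opposite strands. Cat, the catalase gene on the far side of Elf5, rose with SU5402 by 0.53 ± 0.12 (adjusted p = 0.00792) while Elf5 fell. In HOM Cat fell by 0.50 ± 0.13 (adjusted p = 0.0431). Apip, on the far side of Ehf, was at -0.01 with SU5402 (adjusted p = 0.973) and -0.13 in HOM (adjusted p = 0.674). The genes beside Elf3 and Spdef that were tested, Rnpep, D17Wsu92e and Pacsin1, passed in neither comparison.

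Other ETS genes were called in both directions. Of 22 listed, 17 were tested. SU5402 left 11 of them below the threshold, 2 higher and 4 lower, and their median change was -0.05 on the log2 scale against -0.02 over all genes. Etv4 fell by 1.21 ± 0.11 on the log2 scale (adjusted p = 6.22e-06), Etv1 fell by 1.28 ± 0.15 (4.54e-05) and Etv5 fell by 0.74 ± 0.10 (0.000168). These 3 PEA3-group factors are known targets of FGF signalling in epithelial buds. Elf4 rose by 1.31 ± 0.20 (0.000343). These 4 calls held in each fit without 1 library, whereas those of Etv6, which fell, and Elk3, which rose, each failed when DMSO 1, DMSO 2, FGFRi 1 or FGFRi 2 was left out (adjusted p as high as 0.274).

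Of the same 17 genes in HOM, 3 were called higher, 1 lower and 13 not (median 0.07; over all genes, 0.00). Etv4 rose by 0.56 ± 0.10 (adjusted p = 0.00493), Etv5 rose by 0.52 ± 0.10 (0.00657), Ets1 rose by 0.59 ± 0.10 (0.00401), and Etv1 fell by 0.80 ± 0.15 (0.00657). The PEA3-group calls were lost without HOM 2 (adjusted p 0.132 to 0.171), and that of Ets1 without HOM 1 (0.0516). The inhibitor effect minus the HOM effect was -1.76 for Etv4 (adjusted p = 1.3e-05) and -1.26 for Etv5 (2e-04), so these differed between the settings, whereas the same difference for Elf5 was -0.01 and did not pass. Scaled to the pan-epithelial genes, 13 of the 17 rose and 3 fell with SU5402, and 11 rose and 1 fell in HOM. That scaling moved the median of all genes by 0.43 with SU5402 and 0.36 in HOM, and the falls of Etv1, Etv4 and Etv5 with SU5402 remained (-0.87, -0.78 and -0.31).

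**Figure D4:**
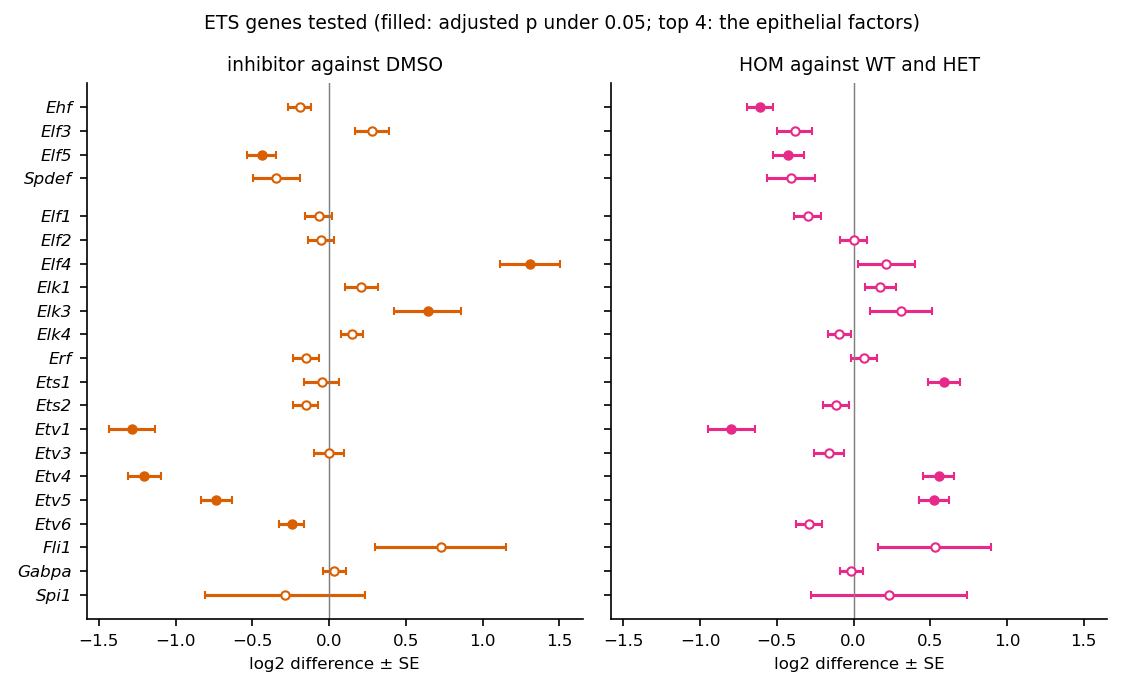
Log2 difference ± SE of the 4 epithelial ETS factors (top) and the 17 other ETS genes tested, with the inhibitor against DMSO (left) and in HOM against WT and HET (right). Filled points have an adjusted p under 0.05. Etv4 and Etv5 lie on opposite sides of 0 in the 2 panels (-1.21 and 0.56 for Etv4), while Elf5 lies at about the same place in both.

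A list of 14 genes named in earlier work as targets of these factors was read next, with 11 tested. With SU5402, 3 rose, 2 fell and 6 did not pass (median -0.17, against -0.02 over all genes). Zeb1, the repressor of epithelial genes that Ehf is known to restrain, rose by 1.16 ± 0.13 (adjusted p = 2.8e-05), and Snai2, another such repressor, by 0.98 ± 0.16 (0.000629). Cldn7, a claudin of tight junctions, fell by 0.75 ± 0.10 (0.000114), and Cdh1, the adherens-junction cadherin, fell by 0.37 ± 0.09 (0.00956). Tgfbr2, a reported target of Elf3, rose by 0.36 ± 0.09 (0.0116). The call on Cdh1 was lost without FGFRi 1 (0.0752) and that on Tgfbr2 without DMSO 1 (0.051).

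In HOM, 1 of the 11 rose and 5 fell, with 5 not passing (median -0.47). Zeb1 rose by 0.79 ± 0.12 (adjusted p = 0.00111). Agr2, which folds mucins in secretory cells and is a reported target of Spdef, fell by 2.00 ± 0.32 (0.00199). Its level was low, with 15 and 34 counts in the HOM libraries and 48 to 76 in those of WT and HET. Cldn7 fell by 0.54 ± 0.10 (0.00562) and Cdh1 fell by 0.47 ± 0.10 (0.011). Zeb1 kept its call in each fit without 1 library, but Agr2 lost it without HOM 2 (0.0582), Cldn7 without HOM 1 or HOM 2 (up to 0.0945), and Cdh1 without WT 2, HOM 1 or HOM 2 (up to 0.118). Creb3l1, a secretory-cell factor, fell by 0.53 ± 0.14 (0.04) and lost the call in 5 of the 6 fits. The fifth gene that fell, Krt4, is a keratin of stratified epithelium, and its call was lost without any 1 of WT 1, HET 1, HET 2, HOM 1 and HOM 2. Zeb1 was also higher in HET than in WT, by 0.78 (adjusted p = 0.0183), and 1.22% of all genes passed there.

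Mesenchymal cells express Zeb1, so the 16 genes of a mesenchyme list were read beside it. Their sum was 2420 to 2591 CPM in DMSO, 3964 to 5474 with SU5402, 2648 to 2737 in WT, 3670 to 4011 in HET and 4113 to 4288 in HOM, with no gene at 0. Of them 14 rose with SU5402 and 9 in HOM, and the part of this in the change of Zeb1 was not tested. A skeletal muscle list of 12 genes summed to 30.4 to 92.6 CPM in DMSO, 188 to 823 with SU5402, 16.4 to 21.7 in WT, 112 to 215 in HET and 218 to 239 in HOM. Its part was not tested either. Scaled to the pan-epithelial genes, Cldn7 still fell with SU5402 (-0.32, adjusted p = 0.00611), and Cdh1 was at 0.06. In HOM on that scale Agr2 was at -1.65 (adjusted p = 0.00162), Cldn7 at -0.18 (0.0981) and Cdh1 at -0.10 (0.324). Cdh1 is itself one of the 16 pan-epithelial genes, so its values near 0 on that scale are partly set by the scaling.

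Of 23 further transcription factors of epithelial and salivary cells, 22 were tested. With SU5402, 4 rose, 5 fell and 13 did not pass (median -0.17). Sox10, a factor of end-bud progenitors, fell by 0.66 ± 0.10 (adjusted p = 0.00048), and Grhl1, a grainyhead factor of epithelial junctions, fell by 0.60 ± 0.09 (0.000513). Bhlha15, the secretory factor Mist1, fell by 0.89 ± 0.19 (0.0041), and Tfcp2l1, a factor of ductal cells, rose by 0.84 ± 0.20 (0.00757). These 4 calls held in each fit without 1 library. Other called genes included Ovol1 and Grhl2, which fell, and Trp63 and Ascl3, which rose. Of these, Ovol1 kept its call in each such fit, and Grhl2, Trp63 and Ascl3 lost it in 4 or more of the 6.

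In HOM 7 of the 22 fell and 15 did not pass (median -0.31). At an adjusted p of 0.05, Grhl1 fell by 0.51 ± 0.10 (0.00733), Xbp1, the secretory-pathway factor, by 0.49 ± 0.10 (0.00869), and Zfp750, of stratified differentiation, by 0.43 ± 0.09 (0.0106). Bhlha15, Sox9 and Klf5 also fell. Grhl1 and Xbp1 lost the call without HOM 1 or HOM 2, Zfp750 also without WT 2, and Bhlha15, Sox9 and Klf5 in 5 or more of the 6 fits without 1 library (adjusted p up to 0.245). Scaled to the pan-epithelial genes, 3 of the 22 rose and 1 fell in HOM, and the called values for Grhl1, Xbp1 and Zfp750 moved to between -0.14 and -0.07, none of which passed. The median of the 4 ETS factors in HOM was -0.42 before that scaling and -0.05 after it.

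A list of 22 genes of stratified epithelium differed between libraries of the same group, so it is given beside the results. Its sum was 219, 261 and 787 CPM in DMSO, 360, 380 and 222 with SU5402, then 743 and 139 for WT, 310 and 505 for HET, and 97.7 and 148 for HOM. DMSO 3 and WT 1 were the highest, and Krt13 in WT 2 rested on 1 count. Ehf, Elf3 and Elf5 are also known in stratified epithelia. Without DMSO 3 and WT 1, Ehf in HOM and Elf5 with SU5402 kept their calls. The calls lost were Elf5 in HOM (adjusted p = 0.0517), Elf3 and Elf5 in HOM against WT (0.267 and 0.0562), and the inhibitor minus HOM difference for Elf3 (0.137).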

How the data were processed

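The deposited values are counts of reads per gene in 12 libraries. Per the submitters' processing notes, bcl2fastq and STAR were used with the GRCm39 build; no source used here names the counter, its use of strand or the annotation. All libraries carry the same batch label. Symbols and exon lengths came from GENCODE M21 (GRCm38), which matched 52489 of 52636 identifiers, and promoter sequences from RefSeq (GRCm38.p6). No coordinates were moved between builds.

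Genes passed filterByExpr (minimum count 10, minimum total 15). All 12 libraries were fitted with 1 coefficient per group in edgeR 4.0.16 (R 4.3.3) with TMM scaling and the quasi-likelihood F test, and p-values were adjusted by Benjamini-Hochberg over 15859 genes. The biological coefficient of variation was 0.11. A change passed at an adjusted p of 0.05. The fit was tested on simulated data. Ratios to pan-epithelial genes (pseudocount 0.5) and between members were compared by exact permutation tests. DESeq2 1.42.0 and limma 3.58.1 were alternatives, with other scalings, no filter, a replicate block, a term for sex, only the groups compared, and each library left out. Ratios between members without each library were added after the data were seen.

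The members and lists were chosen with earlier results of these data known. The members were named in every comparison, along with up to 4 called genes per list and comparison by p, the 5 genes of most similar pattern per member (mean of at least 5 CPM) and the nearest protein-coding neighbours. Further genes that complete a small count (Etv6, Elk3, Tgfbr2, Snai2, Creb3l1, Krt4, Ovol1, Grhl2, Trp63, Ascl3, Sox9, Klf5, Krt7, Krt8, Krt18, Krt19 and, in HOM, Bhlha15) were named after their values were seen. Some genes that the rule or a count takes in are not reported here. No replicate pair agreed within sampling noise (chi-square per degree of freedom 19.6 to 184).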

Additional observations from a re-analysis of the deposited data

Results flagged for a closer look

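The effect of SU5402 and the effect of homozygous deletion differed, by edgeR's quasi-likelihood test of the difference itself, for Elf3 among the epithelial ETS factors. The inhibitor effect minus the HOM effect was 0.664 on the log2 scale (adjusted p = 0.0378). That call was not stable: it held in 4 of 12 fits without 1 library and was lost with pan-epithelial scaling. How far the other differences below hold without 1 library is not given here. Among the other ETS genes the same difference was -1.76 for Etv4, -1.26 for Etv5, -0.64 for Ets1 (adjusted p = 0.041) and 1.09 for Elf4 (adjusted p = 0.0452). Among the reported targets it was 0.522 for Tgfbr2 (adjusted p = 0.0467). Among the epithelial transcription factors it was -0.794 for Sox10 (adjusted p = 0.00969) and 1.42 for Tfcp2l1 (adjusted p = 0.0188). Both HOM libraries are female and their controls male, so genotype and sex cannot be told apart in any of these values.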

How the results depend on the processing

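With SU5402, 3245 genes passed, 1543 higher and 1702 lower; the count was 1303 with library totals (1018 higher, 285 lower), 8190 scaled to the pan-epithelial list (8004 higher, 186 lower) and 2153 with a term for sex, and ran from 1896 to 3099 with 1 library left out (lowest without FGFRi 1). In HOM, 933 genes passed, 546 higher and 387 lower; the count was 536 higher and 96 lower with library totals, 6959 scaled to the pan-epithelial list (6855 higher, 104 lower), 1449 without the filter, 46 with a term for sex, 1406 with only the groups compared and 568 without DMSO 3 and WT 1, an alternative chosen after seeing the data, and ran from 140 (without HOM 2) to 658 with 1 library left out. Library totals moved the median of all genes by 0.148 in HOM, and pan-epithelial scaling by 0.428 with SU5402 and 0.361 in HOM.

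Scaled to the pan-epithelial list, the SU5402 changes were 0.237 for Ehf, 0.725 for Elf3 (adjusted p = 0.000813), -0.0221 for Elf5 and 0.0696 for Spdef. On that scale Ehf in HOM was at -0.243 and kept its call (adjusted p = 0.0461), and Elf5 was at -0.0595. HOM against WT was -0.265 for Ehf, -0.0521 for Elf3, -0.0807 for Elf5 and 0.0207 for Spdef. HOM against HET was -0.221 for Ehf and 0.00664 for Elf3. The calls on Ehf against WT alone and against HET alone were lost, as were those on Elf3 and Elf5 against WT. HET against WT was 0.139 for Spdef. The inhibitor minus HOM difference was 0.748 for Elf3 (adjusted p = 0.0722) and 0.0374 for Elf5. With library totals Elf5 was at -0.407 with SU5402 and -0.275 in HOM, and Ehf at -0.463 in HOM, none of which passed. With a term for sex Ehf was at -0.529, Elf5 at -0.416 and Spdef at -0.56 in HOM, none of which passed. The DMSO libraries alone set that term, so it cannot separate sex from genotype. Ehf passed with SU5402 in DESeq2 (-0.174, adjusted p = 0.046) and limma-voom (-0.192, 0.041), and its difference passed with DESeq2's size factors (0.44, 0.0487) and in DESeq2 (0.442, 0.000336). Elf3 passed in HOM without the filter (-0.354), with only the groups compared (-0.383), in DESeq2 (-0.389) and in limma-voom (-0.383). Spdef passed without the filter with SU5402 (-0.338), in HOM (-0.378) and against WT (-0.415), and with only the groups compared in HOM (-0.406) and against WT (-0.421). The Elf5 difference was 0.00786 with DESeq2's size factors and 0.00877 in DESeq2. Without DMSO 3 and WT 1, Elf5 in HOM was at -0.438, HOM against WT was -0.392 for Elf3 and -0.583 for Elf5, and the difference was 0.59 for Elf3, 0.0644 for Elf5 and -0.0475 for Spdef. Against Epcam and Cdh1 in place of the list, Elf3 in HOM was at 0.00732. The cause of these shifts was not tested.

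With 1 library left out, SU5402 changes ran from 0.178 to 0.37 for Elf3 and -0.519 to -0.152 for Spdef, and the HOM change of Elf5 from -0.473 to -0.378. HOM against WT ran from -0.591 to -0.392 for Elf3 and -0.587 to -0.483 for Elf5, HOM against HET from -0.576 to -0.419 for Ehf, and HET against WT from -0.139 to 0.0352 for Spdef. The difference ran from 0.55 to 0.752 for Elf3, -0.129 to 0.101 for Elf5 and -0.114 to 0.243 for Spdef. Relative to the pan-epithelial list, SU5402 differences ran from -0.113 to 0.0698 for Elf5 and -0.122 to 0.198 for Spdef, and HOM differences from -0.0509 to 0.0342 for Elf3, -0.149 to 0.0292 for Elf5 and -0.112 to 0.00739 for Spdef. A library left alone in its arm was assumed to vary like the other groups.

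The deviations of samples of 2 groups with the same number had correlations of -0.147 to -0.025. With 2 libraries a genotype, the deviations in a group mirror each other. These correlations therefore cannot settle whether such samples were paired, which the labels do not say. With a replicate block 2837 genes passed with SU5402 and 769 in HOM, no call on a member changed, and Ehf in HOM was at -0.609 (adjusted p = 0.00236). With the WT numbers crossed, chosen after seeing the data, 825 genes passed in HOM. With 2 or 3 libraries a group, the exact tests on ratios could not reach 0.05.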
